A study of Mus musculus with 8 samples.

Results

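The genes described here encode the SR proteins, the hnRNP proteins, the proteins of the small nuclear ribonucleoprotein particles (snRNPs) and the SF3a and SF3b subunits of the U2 snRNP. They were picked by a symbol rule, set with earlier results of these data known. It took all genes whose single annotated symbol starts with Srsf, Hnrnp, Snrp, Sf3a or Sf3b, and the brightest probe set of each gene was used. This gave 46 of the 19938 genes with a single symbol on the array, namely 10 SR, 17 hnRNP, 10 snRNP and 9 SF3 genes. All 46 were among the 12452 genes whose mean level passed the filter on dim genes (log2 level of 6.82 and above). Within this rule, measured levels entered only through the choice of probe set and the filter. RefSeq lists 53 protein-coding mouse genes with these symbols. Of the 7 that were not members, Hnrnpa1, Hnrnpa1l2-ps2, Hnrnpa3, Hnrnph3, Snrpf and Snrpn were annotated to probe sets that carry several symbols, and Srsf7 had no probe set with its symbol. Snrpn is therefore given no value here.

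The tissue was the suprachiasmatic nucleus (SCN), the seat of the master circadian clock in the hypothalamus, and its RNA was measured on whole-transcript arrays. The mice were C57BL/6J, either wild type or Gpr176-/-, lacking the orphan G-protein-coupled receptor Gpr176. All had been entrained to a light-dark cycle and then kept in constant darkness, and were sampled at circadian time 6 (CT6, subjective day) or circadian time 18 (CT18, subjective night). The 4 groups were wild type at CT6, wild type at CT18, Gpr176-/- at CT6 and Gpr176-/- at CT18, each with 2 arrays, A and B. Each array held laser-microdissected SCN tissue pooled from 10 animals, so the spread between A and B is a spread between pools and not between animals. No age or sex of the mice and no description of how the Gpr176 allele was made was given in the sources. The samples hold all cell types of the dissected area, and fewer cells of a type and less RNA per cell cannot be told apart.

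The labels were checked on 4 genes. Gpr176 was lower in Gpr176-/- tissue by a log2 difference of -1.30 (adjusted p = 3.37e-06, limma), and its level was 8.02 to 8.56 there against 9.31 to 9.87 in wild type, so the probe set kept a signal in the knockout. The clock genes Per1 (-1.72), Per2 (-1.48) and Arntl (0.64) differed between CT18 and CT6 in the directions known for the SCN clock. Markers of SCN neurons were all above the filter (10 of 10 genes), and 3 of them were called higher and 5 lower at CT18. The list includes Gpr176, and the 1 marker called for genotype was Gpr176 itself. The mean log2 level of these markers was 10.38 to 10.54 at CT6 and 10.05 to 10.13 at CT18, a difference of -0.38. Since most of them were themselves called for time, this mean is not a measure of neuron content. The part of this list in the time results below was not tested. The 8 leptomeningeal markers, of which Lum and Ogn were below the filter, varied most between pools. Their mean log2 level in the wild-type pools was 7.70 and 8.12 at CT6 and 8.38 and 7.60 at CT18, and in the knockout pools 8.27 and 7.79 at CT6 and 7.58 and 7.59 at CT18. None of the 6 that were tested passed for time or for genotype, and the part of such tissue in the results below was not tested. The oligodendrocyte and microglial lists had no member called, the endothelial and mural list had 2 called lower at CT18, and the astrocyte list 1 higher and 1 lower.

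As background, splicing removes introns from pre-mRNA in the spliceosome, which is assembled from snRNPs. Each snRNP carries a small nuclear RNA and particle-specific proteins. Most snRNPs carry a ring of Sm proteins encoded by the Snrpb, Snrpd, Snrpe, Snrpf and Snrpg genes. The U6 snRNP has a ring of LSm proteins instead. SF3a and SF3b belong to the U2 snRNP, which recognises the branch site of the intron. SR proteins bind exonic enhancers and mostly favour the use of nearby splice sites, whereas hnRNP proteins coat nascent RNA and often oppose it. Many SR and hnRNP genes control their own mRNA through alternative exons that lead to decay. In the SCN and in peripheral clocks, RNA-binding proteins and alternative splicing are known to act on clock transcripts, and several are known to respond to the body-temperature rhythm.

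Of the 46 genes, 6 passed the test between CT18 and CT6 over both genotypes (13.0%), against 16.8% of all genes tested. Srsf10, Hnrnpu, Hnrnpm and Sf3b5 rose at CT18 and Srsf5 and Hnrnpdl fell, each by between 1.12-fold and 1.21-fold. The share is near or below the background in both directions, since 10.0% of all genes were called higher and 6.79% lower. The median difference over the 46 genes was 0.02 on the log2 scale and that over all genes 0.01, and 28 of the 46 were above 0 (60.9%, against 54.5% of all genes). An unadjusted p under 0.05 was reached by 12 members (26.1%) and by 30.5% of all genes.

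The promoters of 5 of the 6 called members are shown because these genes differed between the 2 times of day, and Sf3b5 had no promoter entry. Whether the called probe sets read the genes at these promoters was not checked. The 250 bases before the annotated transcription start are given 5′ to 3′ on the strand of the gene, from RefSeq on GRCm38.p6, with capitals marking the cAMP response half-site TGACG on either strand.
Srsf5 (chr12:80945249-80945498, plus strand): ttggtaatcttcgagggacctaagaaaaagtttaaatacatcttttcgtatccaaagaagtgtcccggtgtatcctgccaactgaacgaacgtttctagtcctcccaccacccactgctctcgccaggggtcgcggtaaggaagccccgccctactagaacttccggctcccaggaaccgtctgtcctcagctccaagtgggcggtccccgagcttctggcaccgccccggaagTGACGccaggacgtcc
Hnrnpdl (chr5:100039223-100039472, minus strand): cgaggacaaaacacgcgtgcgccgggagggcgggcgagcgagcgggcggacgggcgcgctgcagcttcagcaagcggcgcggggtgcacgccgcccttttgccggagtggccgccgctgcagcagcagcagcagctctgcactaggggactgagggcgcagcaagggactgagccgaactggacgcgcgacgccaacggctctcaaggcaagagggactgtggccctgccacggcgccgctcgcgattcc
Srsf10 (chr4:135855821-135856070, plus strand): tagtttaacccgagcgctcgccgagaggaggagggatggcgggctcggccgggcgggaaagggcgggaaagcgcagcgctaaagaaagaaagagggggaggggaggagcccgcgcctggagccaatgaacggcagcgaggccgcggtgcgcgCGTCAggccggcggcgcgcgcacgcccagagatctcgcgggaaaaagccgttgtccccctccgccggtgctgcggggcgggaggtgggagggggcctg
Hnrnpu (chr1:178337816-178338065, minus strand): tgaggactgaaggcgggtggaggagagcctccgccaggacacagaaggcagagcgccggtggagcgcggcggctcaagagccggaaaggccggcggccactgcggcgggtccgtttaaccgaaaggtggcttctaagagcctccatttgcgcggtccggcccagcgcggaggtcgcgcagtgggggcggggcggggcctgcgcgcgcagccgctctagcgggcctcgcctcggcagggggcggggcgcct
Hnrnpm (chr17:33685459-33685708, minus strand): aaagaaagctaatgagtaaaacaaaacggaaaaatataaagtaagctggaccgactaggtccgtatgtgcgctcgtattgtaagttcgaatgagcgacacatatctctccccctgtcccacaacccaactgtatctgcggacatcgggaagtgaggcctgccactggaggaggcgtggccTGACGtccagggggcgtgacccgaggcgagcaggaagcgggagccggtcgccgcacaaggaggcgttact

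The half-site lay 12 bases before the start in Srsf5, 66 in Hnrnpm and 94 in Srsf10, and was not in the windows of Hnrnpdl and Hnrnpu. Among these 5 genes it thus occurred in the window of 1 that fell at CT18 and of 2 that rose. Of the 46 members, 40 matched a promoter entry, and 18 of these held the half-site. Counted by entry, since a gene can have several starts, it was in 22 of 54 entries of members (40.7%) and in 17.8% of all 32851 entries of the same length. The entries of members also had more G and C, with a median of 61.2% against 52.4% of bases, and the GC box GGGCGG stood in 38 of the 54 (70.4%) against 32.7% of all entries. The other motifs searched on both strands were the full cAMP response element TGACGTCA, which contains the half-site, with 2 of 54 entries (3.70%, all entries 1.55%), the E-box CACGTG with 4 (7.41%, all 6.02%), the D-box TTANGTAA with 3 (5.56%, all 2.06%) and the heat shock element with 1 (1.85%, all 0.466%). None of these 4 was found in the 5 windows shown. A match is a description of letters and not evidence of binding.

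**Figure D1:**
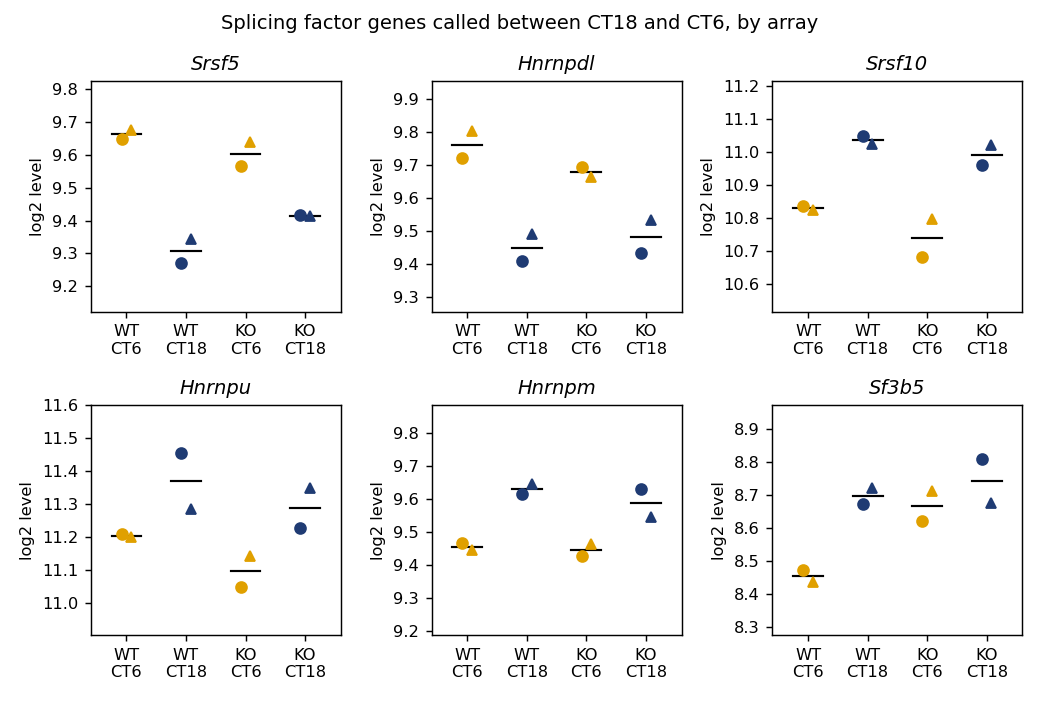
Level of each of the 6 genes called between CT18 and CT6, on the log2 scale, for every array (circle A, triangle B) in wild type (WT) and Gpr176-/- (KO), with the group means as lines. In Srsf5 and Hnrnpdl the 4 CT18 arrays lie below the 4 CT6 arrays, in Srsf10, Hnrnpu and Hnrnpm they lie above, and in Sf3b5 they overlap.

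Of the 10 SR genes 2 were called (20%, against 16.8% of all genes), and Srsf5 had the smallest p. It encodes an SR protein that binds purine-rich exonic enhancers. On the log2 scale its wild-type pools read 9.65 and 9.67 at CT6 against 9.27 and 9.35 at CT18, and its knockout pools 9.56 and 9.64 at CT6 against 9.42 and 9.41 at CT18. All 4 CT18 arrays were below all 4 CT6 arrays, and the wild-type CT18 pools were the lowest. It fell by 1.21-fold (log2 difference -0.27 ± 0.0387 SE, 95% interval -0.36 to -0.18, adjusted p = 0.00146, limma). A second Srsf5 probe set gave -0.30 over both genotypes, with -0.39 in wild type and -0.21 in the knockout. Whether it reads the same transcripts as the first was not checked, so it is not separate support.

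Srsf10 moved the other way. Its protein is an atypical SR protein that acts as a general splicing repressor once dephosphorylated, as in heat shock and mitosis. The wild-type pools read 10.84 and 10.82 at CT6 against 11.05 and 11.03 at CT18, and the knockout pools 10.68 and 10.80 against 10.96 and 11.02. The CT18 arrays were all higher than the CT6 arrays. Srsf10 rose by 1.17-fold (0.23 ± 0.0409, adjusted p = 0.00467, limma). A second, much dimmer Srsf10 probe set, with a mean level of 6.89 just above the filter, gave 0.14 and was not called (adjusted p = 0.199, limma). All other settings tried used the brighter set, alone or in a mean over both. Which of these sets reads the gene whose promoter is shown above was not checked.

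The other 8 SR genes did not pass. Srsf2, which encodes the nuclear-speckle protein SC35, had a difference of 0.17 (adjusted p = 0.0699) and Srsf9 one of 0.15 (adjusted p = 0.0654), and the other 6 lay between -0.03 (Srsf11) and 0.08 (Srsf3). The 3 Srsf3 probe sets gave 0.08, 0.09 and 0.25. The dimmest of them, with the 0.25, read 7.61 on knockout CT6 array A and 8.17 to 8.43 on the others, so 1 array stood apart there. Which of the 3 sets reads Srsf3 itself was not checked. Srsf3 encodes the smallest SR protein, which also serves in mRNA export.

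Among the 17 hnRNP genes, 3 were called, 2 higher and 1 lower (17.6%, near the 16.8% of all genes). Hnrnpdl encodes a relative of hnRNP D that binds AU-rich RNA. Hnrnpdl read 9.72 and 9.80 at CT6 against 9.41 and 9.49 at CT18 in wild type, and 9.70 and 9.66 against 9.43 and 9.53 in the knockout. Again no CT18 array reached the lowest CT6 array, and the fall was 1.19-fold (-0.25 ± 0.0428, adjusted p = 0.00344, limma). Its relative Hnrnpd had a difference of -0.07 and was not called.

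Hnrnpu encodes scaffold attachment factor A, which binds both RNA and chromatin. It read 11.21 and 11.20 at CT6 against 11.45 and 11.29 at CT18 in wild type, and 11.05 and 11.14 against 11.23 and 11.35 in the knockout. The CT18 arrays were higher throughout, with the lowest of them (11.23) close to the highest CT6 array (11.21). The rise was 1.13-fold (0.18 ± 0.0508, adjusted p = 0.0390, limma).

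Hnrnpm, whose protein binds GU-rich RNA and represses or activates exons, stood at 9.46 and 9.44 at CT6 against 9.61 and 9.65 at CT18 in the wild-type pools. The knockout pools gave 9.43 and 9.46 against 9.63 and 9.54. The groups did not overlap, and the rise was 1.12-fold (0.16 ± 0.0382, adjusted p = 0.0195, limma). The other 14 hnRNP genes were not called. They ran from -0.07 (Hnrnpd) to 0.13 (Hnrnpab and Hnrnpul2), and the adjusted p of these last 2 was 0.0742 and 0.0576. Hnrnpa2b1, a reader of methylated RNA, was higher on every CT18 array by a small margin (0.09, adjusted p = 0.123), with levels of 10.14 to 10.30 at CT6 and 10.31 to 10.33 at CT18.

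None of the 10 snRNP genes was called for time, against 16.8% of all genes. Snrpd3, which encodes an Sm-ring protein, came closest with 0.16 ± 0.0473 (adjusted p = 0.0510, limma). Its CT18 arrays read 10.97 and 11.04 in wild type and 11.16 and 11.08 in the knockout, and its CT6 arrays 10.98, 10.85, 10.95 and 10.85, so the groups overlapped by 1 array. Snrpd3 was called with the deposited values, with median centring and with the stricter level filter. It was also called with the mean over probe sets and with an intensity trend and robust prior. The remaining 9 lay between -0.08 (Snrpb2, of the U2 snRNP) and 0.10 (Snrpa, of the U1 snRNP). Of the 9 SF3 genes only Sf3b5, a small subunit of SF3b, was called (11.1%, against 16.8% of all genes). It rose by 1.12-fold (0.16 ± 0.0446, adjusted p = 0.0372, limma), with wild-type pools at 8.47 and 8.44 at CT6 against 8.67 and 8.72 at CT18, and knockout pools at 8.62 and 8.71 against 8.81 and 8.68. The knockout CT6 pool at 8.71 lay within the CT18 range of both genotypes. The other 8 SF3 genes lay between -0.07 (Sf3b1, the subunit that contacts the branch site) and 0.08 (Sf3a1).

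**Figure D2:**
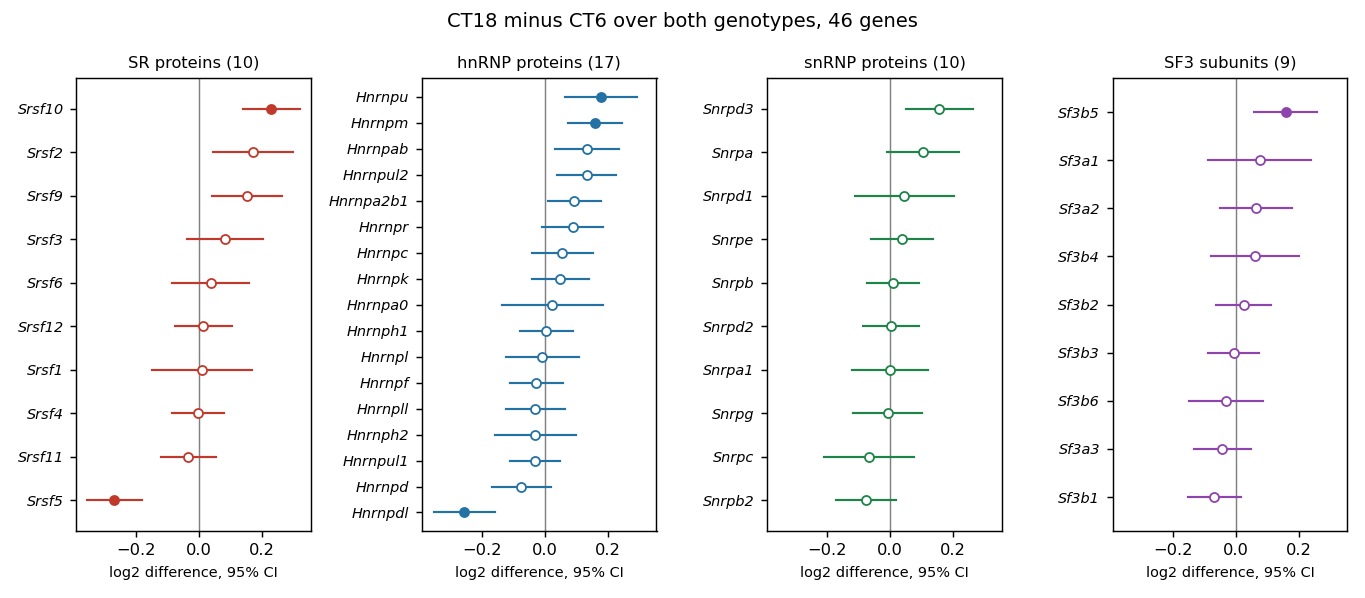
Difference CT18 minus CT6 over both genotypes for the 46 genes (points) with 95% intervals from limma (bars), on the log2 scale, grouped as SR, hnRNP, snRNP and SF3, with called genes filled. The differences run from -0.27 (Srsf5) to 0.23 (Srsf10), and most intervals cross 0.

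The groups of 4 CT18 and 4 CT6 arrays did not overlap for 4 genes that were higher (Srsf10, Hnrnpu, Hnrnpm and Hnrnpa2b1) and 2 that were lower (Srsf5 and Hnrnpdl), against 12.6% and 8.30% of all genes. Srsf5 and Hnrnpdl passed in all of the 16 other settings tried and Srsf10 in 15, but Hnrnpm passed in 12 and Hnrnpu and Sf3b5 in 7 each. Leaving out wild-type CT6 array B or knockout CT6 array A left 3 called members, Srsf5, Srsf10 and Hnrnpdl.

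Taken genotype by genotype, with 2 arrays against 2, fewer members passed. In wild type Srsf5 (-0.35 ± 0.0547, adjusted p = 0.00491) and Hnrnpdl (-0.31 ± 0.0606, adjusted p = 0.0140) fell, which is 2 of 46 (4.35%) against 6.94% of all genes. By direction this is none higher and 2 lower, against 4.40% and 2.54% of all genes. Sf3b5 had 0.24 ± 0.0630 (adjusted p = 0.0513) and Srsf10 0.21 ± 0.0578 (adjusted p = 0.0650). Wild-type pools did not overlap for 14 members that were higher at CT18 and 10 that were lower, when 30.5% and 21.6% of all genes did the same. No member passed without wild-type CT18 array A, and Srsf5 alone passed without wild-type CT6 array B.

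In the knockout Srsf10 rose (0.25 ± 0.0578, adjusted p = 0.0306, limma), and it was the 1 member of 46 that passed (2.17%), against 7.16% of all genes. By direction the background was 3.63% higher and 3.53% lower. Snrpd3 (0.22, adjusted p = 0.0813), Srsf5 (-0.19 ± 0.0547, adjusted p = 0.0748) and Hnrnpdl (-0.20 ± 0.0606, adjusted p = 0.0852) did not pass. Knockout pools did not overlap for 15 members that were higher and 6 that were lower, against 28.7% and 23.8% of all genes. The call of Srsf10 was lost with the values as deposited, with median centring, with no filter on dim genes, with the mean over probe sets and with a fit to the knockout groups alone. With its next brightest probe set the difference was 0.12 (adjusted p = 0.516), and Srsf5 was then the member called. It was also lost without wild-type CT6 array B or any of knockout CT6 array A, knockout CT18 array A and knockout CT18 array B.

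The test of the difference between these 2 changes, the interaction of time and genotype, called none of the 46 genes and 0% of all genes (limma). An unadjusted p under 0.05 was reached by 1 member, Srsf4, and by 605 of all genes (4.86%). Srsf4, an SR protein with a long arginine-serine domain, read 9.81 and 9.85 at CT6 against 9.94 and 9.89 at CT18 in wild type, but 9.92 and 9.96 against 9.86 and 9.83 in the knockout. Its CT18 pools were thus above the CT6 pools in wild type and below them in the knockout, and the interaction was -0.18 ± 0.0732 (adjusted p = 0.944). Hnrnph1 and Snrpb read lower at CT18 in wild type and higher at CT18 in the knockout, without overlap of the pools. Such crossing was found in 3 of the 46 members and in 425 of all genes (3.41%). For Srsf5, which passed in wild type and not in the knockout, the interaction was 0.17 ± 0.0773 (adjusted p = 0.944), so its change is not shown to differ between genotypes. For Sf3b5 it was -0.16.

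Across the 46 genes, the wild-type and the knockout change had a Pearson r of 0.71 and a Spearman rho of 0.62, and 35 had the same sign. Over all genes r was 0.76 and rho 0.56, with the same sign in 8489 of 12452. These are descriptions across genes, which are not independent replicates, and the 2 changes share no array. By class, the sign was the same in 9 of 10 SR genes, 13 of 17 hnRNP genes, 8 of 9 SF3 genes and 5 of 10 snRNP genes.

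**Figure D3:**
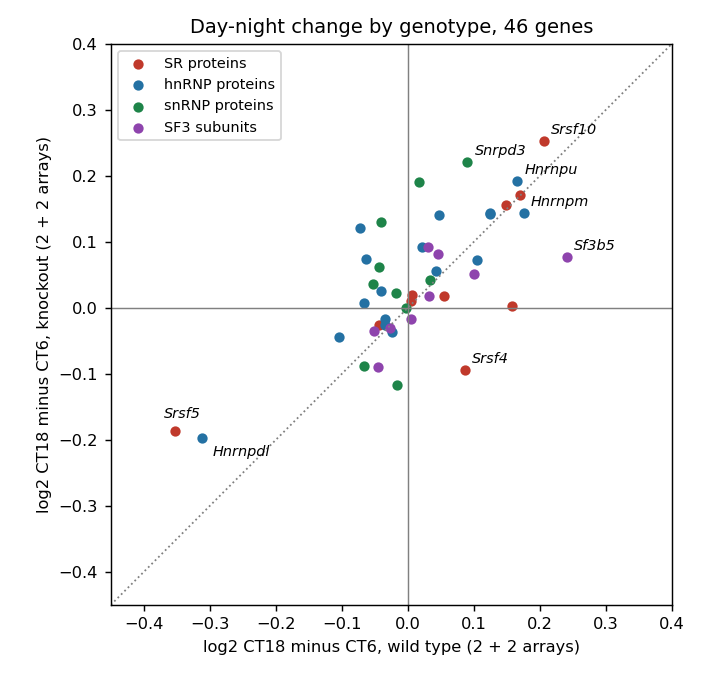
Difference CT18 minus CT6 in wild type (x axis) and in the knockout (y axis), log2 scale, 1 point for each of the 46 genes, coloured by class. Srsf5 and Hnrnpdl lie low and Srsf10 high on both axes, and 35 of the 46 points have the same sign on both.

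Over both times no member passed between Gpr176-/- and wild type (0 of 46, limma), and 3 of all genes did (0.0241%). The largest differences were -0.19 for Hnrnpa0 and 0.13 for Sf3b5, and the 95% intervals of all 46 genes lay between -0.35 and 0.25 on the log2 scale. An unadjusted p under 0.05 was reached by 6 members (13.0%), against 12.0% of all genes.

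Sf3b5 had the smallest p among the members (0.13 ± 0.0446, adjusted p = 0.368, limma), and its arrays, given above, overlapped between genotypes. Hnrnpll, a regulator of CD45 exons in lymphocytes, read 8.73, 8.65, 8.68 and 8.65 in wild type and 8.52, 8.64, 8.53 and 8.55 in the knockout. All its knockout arrays were lower, but the margin was narrow, and the difference was -0.12 ± 0.0418 (adjusted p = 0.368). Snrpd2, an Sm-ring gene, read 9.67, 9.67, 9.62 and 9.69 in wild type and 9.78, 9.73, 9.82 and 9.74 in the knockout, without overlap (0.10 ± 0.0394, adjusted p = 0.374). Its 4 other probe sets gave between 0.10 and 0.13. Pools did not overlap between genotypes for 3 members that were higher in the knockout (Snrpd2, Snrpg and Sf3a3) and for 1 that was lower (Hnrnpll), against 2.10% and 2.13% of all genes.

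By class the signs were uneven. All 10 snRNP genes had a difference above 0 over both times (9 with median centring), with a median of 0.07, whereas 43.9% of all genes were above 0 and their median was -0.01. Without wild-type CT18 array B or knockout CT18 array A, 9 of the 10 were above 0. Of the hnRNP genes 3 of 17 were above 0 (median -0.04), and 0 of 17 with the deposited or the median-centred values. The median of all genes was -0.01 with the deposited values and -0.03 with median centring, so the latter moved all genes down. Of the SF3 genes 7 of 9 and of the SR genes 3 of 10 were above 0. None of these genes passed the test singly, and the genes of a class share the same 8 arrays, so the counts are given as a description only.

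**Figure D4:**
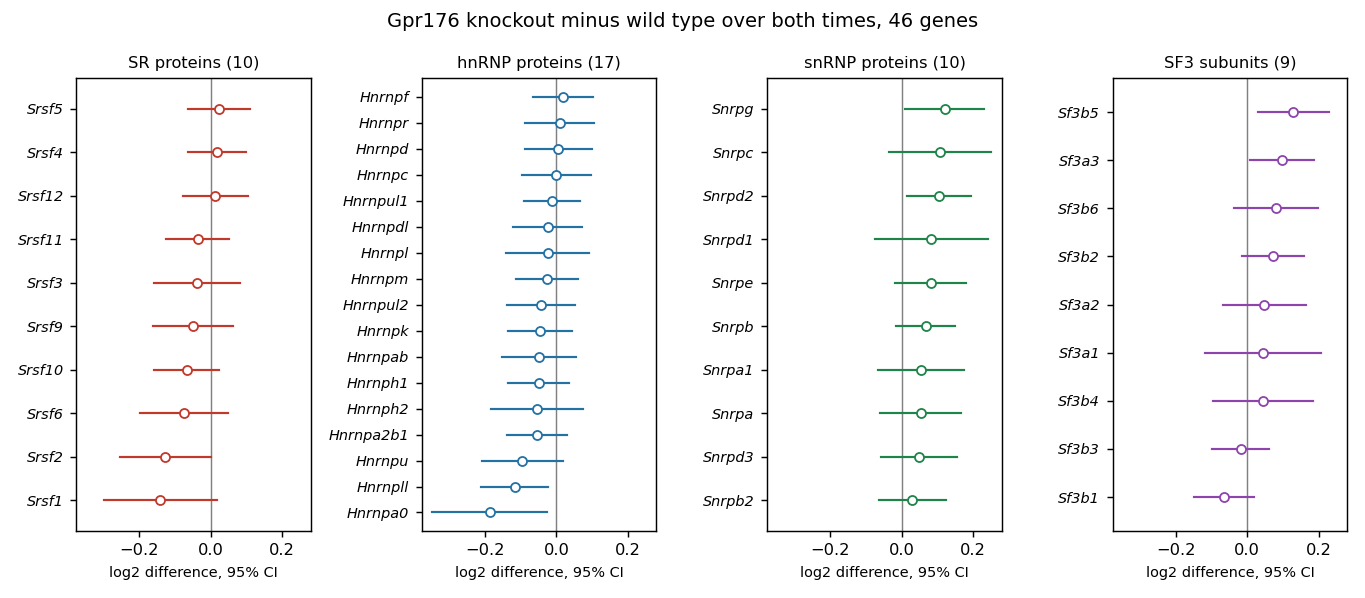
Difference Gpr176-/- minus wild type over both times for the 46 genes (points) with 95% intervals from limma (bars), log2 scale, grouped by class. All 10 snRNP points (9 with median centring) and 3 of the 17 hnRNP points (0 with median centring) lie above 0, with no gene called. With median centring the median of all genes was -0.03.

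At CT6 no member passed between genotypes (0 of 46, against 0.00803% of all genes, limma), and 2 had an unadjusted p under 0.05 (4.35%, against 4.24%). Sf3b5 had a difference of 0.21 ± 0.0630 and Hnrnpa0 had -0.28 (adjusted p = 0.975 for both). Hnrnpa0, which binds AU-rich RNA, read 7.36 and 7.34 in wild type and 6.90 and 7.24 in the knockout, and these 2 knockout pools differed by 0.334, the widest gap of any member in that group. Hnrnph1, a G-run binding protein, had -0.12. Over the 46 members the pools did not overlap for 7 that were higher and 13 that were lower in the knockout, against 15.7% and 17.1% of all genes. By class these were 0 higher and 8 lower of 17 hnRNP genes, 1 and 4 of 10 SR genes, 3 and 1 of 9 SF3 genes and 3 and 0 of 10 snRNP genes. Of the hnRNP genes 2 were above 0, and 7 were without wild-type CT6 array A.

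At CT18 no member passed either (0 of 46, against 0.00803% of all genes, limma), and 2 had an unadjusted p under 0.05 (4.35%, against 12.5%). The 3 smallest p belonged to Sm-ring genes, Snrpg (0.16 ± 0.0697, adjusted p = 0.388), Snrpb (0.12, adjusted p = 0.394) and Snrpd2 (0.12, adjusted p = 0.403). Snrpg read 9.58 and 9.71 in wild type and 9.89 and 9.73 in the knockout, and its second probe set gave 0.23 over both times where the brighter one gave 0.12. All 10 snRNP genes were above 0 at CT18, but 7 were without knockout CT18 array A, 8 without wild-type CT18 array B, 9 without wild-type CT18 array A, 9 with the deposited values and 8 with median centring. Their mean log2 level was 9.76 on knockout CT18 array A and 9.59 to 9.68 on the other 7 arrays. For 6 of the 10 the pools did not overlap, against 19.2% of all genes that were higher without overlap. Over the 46 members 11 were higher and 6 lower without overlap, and 26.7% of all genes were lower. Knockout CT18 array A was the higher of its pair for Snrpd1 by 0.365, the widest gap between 2 pools of a group among all members.

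The precision of these values rests on 2 pools in each group. The median distance between A and B over the 46 genes was 0.0510 in wild type at CT6, 0.0608 in wild type at CT18, 0.0695 in the knockout at CT6 and 0.0738 in the knockout at CT18, and over all genes it was 0.0644 to 0.0672. Of the members, 10 had more than 1 probe set, among them the called genes Srsf5 and Srsf10. Which place in the genome each probe set reads was not checked. The brightest set need therefore not be the one that reads the named gene. Like values from several sets of 1 gene may come from the same transcripts and are not separate support. Several of these genes have near-identical copies in the genome, so a probe set named for 1 of them can collect signal of another, and the values of such genes are uncertain. The 4 Hnrnpf probe sets ran from -0.05 to -0.02 for time and the 3 Hnrnpk sets from 0.03 to 0.05.

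Other genes of the splicing pathway were counted in 4 lists, chosen with earlier results of these data known. The shares below are therefore descriptions only. For time over both genotypes, 16 of 61 other splicing regulators tested were called (26.2%, 11 higher and 5 lower), against 16.8% of all genes. Their median was 0.04 and that of all genes 0.01. The neuronal microexon regulator Srrm4 fell by 0.55 on the log2 scale (SE 0.0559, adjusted p = 0.000176, limma), from 9.38 to 9.56 at CT6 to 8.75 to 8.98 at CT18. Tra2a, an SR-like activator, rose by 0.37 (adjusted p = 0.000378), from 8.80 to 9.07 at CT6 to 9.28 to 9.31 at CT18. Celf3 (-0.34) and Tial1 (-0.25) fell, and Celf2 (0.21) and Tardbp (0.23) rose.

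Of 60 other spliceosome core factors tested 5 were called (8.33%, against 16.8% of all genes). Lsm3 (0.22), Prpf3 (0.15) and Cdc5l (0.14) rose and Cwc22 (-0.23) and Cwc27 (-0.27) fell. Lsm3 belongs to the ring that binds U6 RNA, and Prpf3 to the tri-snRNP. Of the 10 tested genes for SR protein kinases and the importer of SR proteins, 1 was called (10%, against 16.8%). This was Srpk1, which phosphorylates SR proteins in the cytoplasm and rose by 0.20 (adjusted p = 0.00872, limma). Its levels were 9.64 to 9.72 at CT6 and 9.81 to 9.92 at CT18. Of the 14 tested snRNP assembly factors 3 were called (21.4%, against 16.8%), all higher. These were Prmt5 (0.20), which methylates Sm proteins, and Gemin5 (0.15) and Gemin8 (0.15), both of the SMN complex. In wild type 10 splicing regulators were called (16.4%, against 6.94% of all genes) and in the knockout 6 (9.84%, against 7.16%). Of the core factors 0 were called in wild type and 1 in the knockout (1.67%), and of the assembly factors 0 in both. Srpk1 was the 1 gene of its list called in wild type, and 0 of that list were called in the knockout. No gene of the 4 lists was called for genotype or for the interaction.

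**Figure D5:**
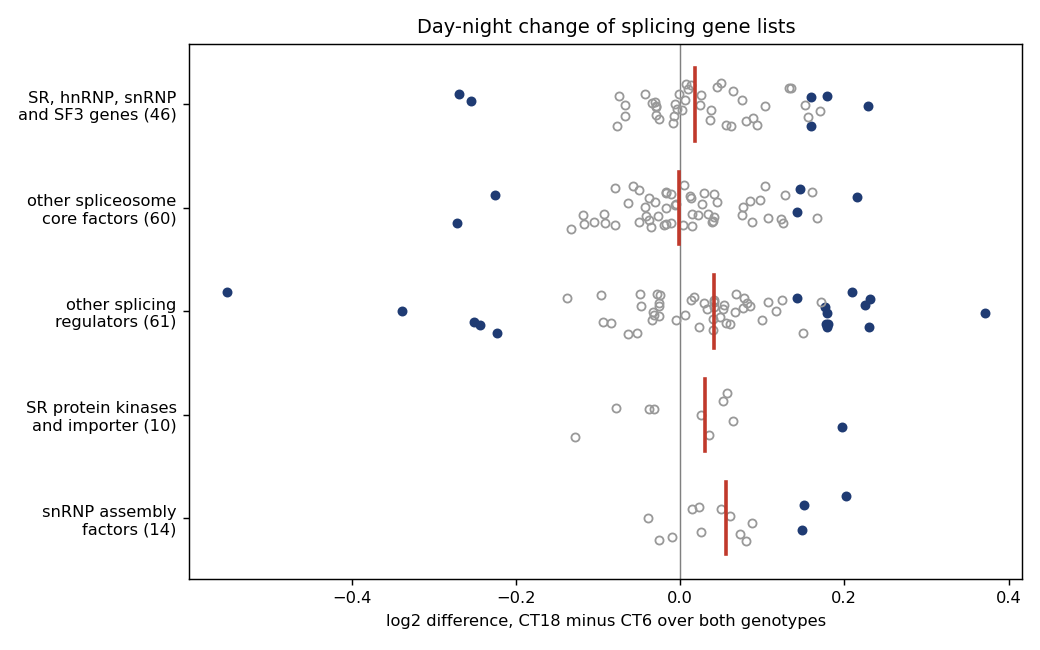
Difference CT18 minus CT6 over both genotypes (log2 scale) for every tested gene of the 46 members and of the 4 lists of other splicing genes, 1 point for each gene, with called genes filled. Red bars mark medians. Srrm4 at -0.55 and Tra2a at 0.37 lie farthest from 0, outside the range of the 46 members (-0.27 to 0.23).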

How the data were processed

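The authors deposited 1 table of log2 expression values for 28853 probe sets on 8 arrays; background correction, summarisation and normalization are not given in the sources used here. Because the lower quartiles of the arrays spread by more than 0.1, the deposited log2 columns were quantile normalized, a step that removes any shift common to most genes. Names came from the platform annotation (21789 probe sets with 1 symbol, 1621 with several, 5443 unlisted). The brightest probe set by mean over the 8 arrays stood for each gene, and genes under the 40th percentile of all probe sets were left out (7486), leaving 12452.

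Group means were fitted in limma 3.58.1 (R 4.3.3) with 4 residual degrees of freedom. The 7 contrasts were adjusted with Benjamini-Hochberg over the 12452 genes, with calls made below 0.05. The ± values are standard errors of the fit, and 95% intervals are from the moderated fit. The limma steps were tested on simulated data. The letters A and B were not treated as pairs in the main fit. Correlations of A minus B between groups ran from -0.22 to 0.26, which cannot show whether the pools were paired.

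Named were, for each contrast, all called members (up to 12 in each direction), or the 3 with the smallest p where fewer than 3 were called, Snrpn, up to 6 called genes of each pathway list, and Gpr176, Per1, Per2 and Arntl. Other genes, those near a threshold or at the end of a range, were named after their values were seen. The members and lists were chosen with earlier results of these data known. The alternatives were the values as deposited, median centring, other filters, the mean over probe sets, another variance prior, a replicate block, only the 2 groups compared, and leaving out each array. The next brightest probe set was added after the data were seen.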

Additional observations from a re-analysis of the deposited data

How the results depend on the processing

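No called difference of a named member changed sign under any setting tried. Over both genotypes the count of members called for time was 6, was 11 with an intensity trend and robust prior, and ran from 3 to 6 with each array left out. With the stricter level filter it was 9, with no level filter 4, with the mean over probe sets 7 and with median centring 5. In wild type the count of 2 became 4 with the stricter level filter and 5 with the trend and robust prior, and ran from 0 to 3 with each array left out. In the knockout the count of 1 became 0 with the deposited values, median centring, no level filter, the mean over probe sets or only the 2 groups compared, became 4 with the trend and robust prior, and ran from 0 to 1 with each array left out. For genotype and interaction the count of members stayed at 0 in every setting run. With a replicate block on the letters the counts were 4 over both genotypes, 2 in wild type and 1 in the knockout. Of the values for single genes, 349 kept their side of the threshold, 36 fell short of it and 10 passed it newly. Adjusted p over the alternatives ran from 0.000203 to 0.00851 for Srsf5, 0.000592 to 0.0181 for Hnrnpdl, 0.000769 to 0.199 for Srsf10, 0.00710 to 0.0678 for Hnrnpm, 0.0139 to 0.130 for Hnrnpu and 0.0251 to 0.119 for Sf3b5. Over all genes the count of calls for time was 2096 and fell to 1378 without knockout CT18 array B, in wild type it was 864 and ran from 315 to 842 with each array left out, and in the knockout it was 891, was 590 with median centring and ran from 382 to 799 with each array left out. For genotype the count of 3 over both times ran from 1 to 9, and the count of 1 at either time reached 2 at CT6 and 3 at CT18. The cause of these shifts was not tested. Hnrnpa0 had no value under the stricter filter, and the fit on only the groups compared could not be made for contrasts that use all groups. The number of arrays limits the precision.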
